A study of Mus musculus with 9 samples.

Results

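The markers of liver sinusoidal and vascular endothelium followed here are 10 genes, Stab1, Stab2, Lyve1, Clec4g, Ptprb, Kdr, Cd34, Plvap, Vwf and Pecam1. They were chosen by gene symbol, and all 10 were found among the 16755 genes of the table. The table gives 1 mean for each of 3 groups of 3 mice, all males (strain C57BL/6 in the labels, C57BL/6J in the study's methods) carrying floxed Scd2, the stearoyl-CoA desaturase gene whose loss in activated hepatic stellate cells (HSC) the study examined. Untreated Scd2f/f livers were the reference. Treated Scd2f/f and treated Scd2f/f;Col1a1-Cre (Scd2f/f;CC) mice received diethylnitrosamine (DEN), a hepatic carcinogen, (10 mg/kg) when 2 weeks old, and a Western alcohol diet (WAD) from an age of 6 weeks. The labels give 4 months of diet, and the study's methods give a longer period. In Scd2f/f;CC mice the Cre recombinase is driven by the Col1a1 promoter, so the deletion is meant for collagen-producing HSC and portal fibroblasts and not for endothelial cells. The tissue is named as liver in the labels, as tumor-adjacent liver (TAL) in the study's results and as NTL in its RNA methods. The age of the untreated mice was given only within a range over all mice of the study.

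Hepatic sinusoids are lined by a specialised endothelium with open pores and no continuous basement membrane. Its cells take up waste molecules from the blood through scavenger receptors and lectins, which the large vessels of the liver mostly lack. In chronic injury and in liver tumors these cells can lose their pores and gain features of ordinary capillaries, a change known as capillarization, for which CD34 is a common tissue marker. Stab1 and Stab2 encode stabilins, scavenger receptors of the sinusoid, Lyve1 encodes a hyaluronan receptor, and Clec4g encodes the lectin LSECtin. Kdr encodes VEGF receptor 2. Ptprb encodes VE-PTP, a phosphatase that acts on the angiopoietin receptor TIE2 and on VE-cadherin. Plvap encodes the protein of the diaphragms that close endothelial pores, Vwf the von Willebrand factor stored by large-vessel endothelium, and Pecam1 a junction protein of all endothelium, also found on leukocytes and platelets.

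The values are the authors' least-squares means of upper-quartile normalized read counts, given with 3 significant digits. No values of single mice were analysed here. The spread between mice and the depth of each library are therefore unknown, no test was run, and every ratio below is a description of 2 group means without a replicate check. In bulk liver, fewer cells of a type and less RNA per cell cannot be told apart. A ratio of at least 2 in either direction is used as a mark of size and not of significance. Between groups the upper quartile of all means was 15.4 to 15.5, and 11784 genes averaged 1 or more over the 3 groups. These are called expressed genes here, and the medians of their log2 ratios were 0.03, 0.0059 and 0.04 in the comparisons of treated with untreated Scd2f/f, treated Scd2f/f;CC with treated Scd2f/f, and treated Scd2f/f;CC with untreated Scd2f/f. The first and second of these share the treated Scd2f/f mean. Scd2 itself had a mean of 2.46 in untreated Scd2f/f, 6.47 in treated Scd2f/f and 1.87 in treated Scd2f/f;CC livers. Its log2 ratio between the genotypes was -1.79.

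The sequences before the starts of 3 genes are shown because these genes differed in the order of their group means. They are the scavenger receptor gene Stab2, the lectin gene Clec4g and Cd34, the gene with the lowest ratio between the genotypes. Each is the 250 bases before the RefSeq start in build GRCm38.p6, written in the direction of the gene. Capitals mark AGGAAG, the core that ETS transcription factors such as ERG recognise in endothelial genes, or its reverse complement CTTCCT. The stretch for Stab2 is chr10:87007943-87008192 on the minus strand, for Clec4g chr8:3720652-3720901 on the minus strand, and for Cd34 chr1:194938571-194938820 on the plus strand. For Stab2 the RefSeq start lies within the gene span of the table, so part of its stretch overlaps that span.
Stab2: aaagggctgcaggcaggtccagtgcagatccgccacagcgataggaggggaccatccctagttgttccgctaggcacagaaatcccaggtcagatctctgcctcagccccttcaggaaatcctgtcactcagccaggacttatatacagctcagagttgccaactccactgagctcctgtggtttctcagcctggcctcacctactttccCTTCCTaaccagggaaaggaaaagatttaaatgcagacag
Clec4g: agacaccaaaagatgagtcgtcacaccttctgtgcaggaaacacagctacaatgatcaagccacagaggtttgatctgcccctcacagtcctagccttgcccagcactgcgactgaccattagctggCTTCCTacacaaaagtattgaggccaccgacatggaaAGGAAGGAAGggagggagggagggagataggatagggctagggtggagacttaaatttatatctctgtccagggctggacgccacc
Cd34: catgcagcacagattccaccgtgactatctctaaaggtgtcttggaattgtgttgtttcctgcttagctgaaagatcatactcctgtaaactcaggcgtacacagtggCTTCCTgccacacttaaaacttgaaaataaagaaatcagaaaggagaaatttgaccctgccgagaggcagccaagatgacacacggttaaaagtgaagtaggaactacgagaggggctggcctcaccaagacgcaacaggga

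The core stood 1 time in Stab2, 3 times in Clec4g, of which a pair overlaps, and 1 time in Cd34. Promoters of 5 of the 10 genes were found in the RefSeq table, those 3 and those of Stab1 and Kdr. Stab1 held the core 1 time and Kdr 0 times. Among all 32851 promoters of the table, 29.5% held AGGAAG on either strand over the same 250 bases. The GATA core AGATAA, present in 9.99% of all promoters, and the core GGAATG of the TEAD factors that partner YAP1, present in 12.6%, were in none of the 5, again on both strands. Stab2, with near-level means in the treated genotypes, and Cd34, with the lowest ratio between them, thus each held 1 ETS core.

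The stabilins had nearly level means in the treated genotypes. Stab1, on the minus strand of chromosome 14 (chr14:31139013-31168641), had a mean of 25.1 normalized counts in untreated Scd2f/f, 26.0 in treated Scd2f/f and 28.0 in treated Scd2f/f;CC livers. Stab2, on the minus strand of chromosome 10 (chr10:86841198-87008025), had means of 36.9, 42.8 and 45.9 in the same order. Both genes were lowest in untreated and highest in treated Scd2f/f;CC livers, with the highest mean 1.12-fold the lowest for Stab1 and 1.24-fold for Stab2. For both genes the treated genotypes lay within 1.1-fold of each other, with log2 ratios between the genotypes of 0.11 for Stab1 and 0.10 for Stab2. Against untreated livers the log2 ratio in treated Scd2f/f was 0.05 for Stab1 and 0.21 for Stab2, values that lie below 0 when expressed relative to the median of 31 pan-endothelial genes (0.27).

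Clec4g, on the minus strand of chromosome 8 (chr8:3707064-3720651), had a mean of 13.9 in untreated Scd2f/f, 18.8 in treated Scd2f/f and 17.7 in treated Scd2f/f;CC livers. Both treated groups lay above the untreated mean, and they lay within 1.1-fold of each other. The log2 ratio of treated to untreated Scd2f/f was 0.44, and that of treated Scd2f/f;CC to treated Scd2f/f was -0.09. Of the expressed genes, 18.2% had as high a ratio of treated to untreated Scd2f/f.

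Lyve1 had the widest difference with treatment of the 10 genes. It lies on the minus strand of chromosome 7 (chr7:110850607-110863239), and its mean was 2.60 in untreated Scd2f/f, 6.60 in treated Scd2f/f and 3.44 in treated Scd2f/f;CC livers. Treated Scd2f/f livers stood apart from both other groups, with a mean 2.54-fold that of untreated livers and 1.92-fold that of treated Scd2f/f;CC livers. The log2 ratios were 1.34 for treated against untreated Scd2f/f and -0.94 for treated Scd2f/f;CC against treated Scd2f/f. These means are low, and adding 1 to each moved the log2 ratios to 1.08 and -0.78. Treated Scd2f/f;CC livers were 1.32-fold above untreated livers. Among expressed genes, 3.95% had as high a ratio in the first comparison and 1.78% as low a ratio in the second.

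Lyve1 was thus unlike the other 3 scavenger and lectin genes in size. For every 100 normalized counts of Stab2, Lyve1 had 7.05 in untreated Scd2f/f, 15.4 in treated Scd2f/f and 7.49 in treated Scd2f/f;CC livers. For Clec4g the same quotient was 37.7, 43.9 and 38.6, and for Stab1 it was 68.0, 60.7 and 61.0. These quotients are compared between groups only, since the counts are not known to be scaled by gene length.

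Kdr and Ptprb had their highest means in treated Scd2f/f;CC livers. Kdr, on the minus strand of chromosome 5 (chr5:75932827-75978458), had means of 29.8 in untreated Scd2f/f, 34.9 in treated Scd2f/f and 40.2 in treated Scd2f/f;CC livers. Its log2 ratios were 0.23 for treated against untreated Scd2f/f, below the pan-endothelial median, and 0.20 between the treated genotypes, the highest value of the 10 genes in the second comparison. Against untreated livers the log2 ratio in Scd2f/f;CC was 0.43, and 16.6% of expressed genes had as high a ratio. Ptprb, on the plus strand of chromosome 10 (chr10:116275523-116389535), had means of 75.2, 75.1 and 82.2 in the same order, so the Scd2f/f groups were level and all 3 groups lay within 1.1-fold of each other.

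**Figure D1:**
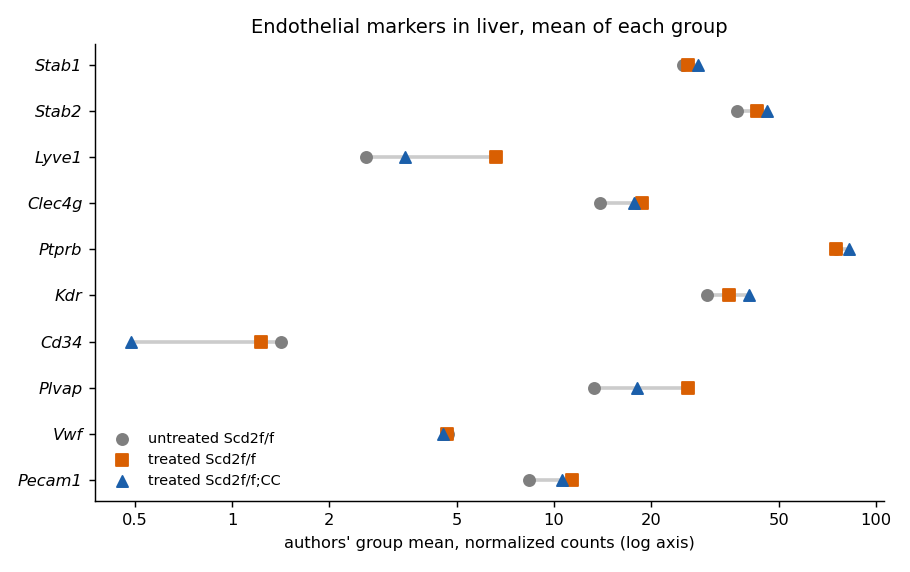
Group means of the 10 endothelial markers, 1 row a gene, on a log axis of the authors' normalized counts, with a circle for untreated Scd2f/f, a square for treated Scd2f/f and a triangle for treated Scd2f/f;CC. Symbols nearly coincide for Stab1, Ptprb and Vwf, treated Scd2f/f stands to the right for Lyve1 (6.60) and Plvap (26.0), and treated Scd2f/f;CC stands to the left for Cd34 (0.485); the bars join the lowest and highest mean and are not errors.

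Plvap resembled Lyve1 in the order of its groups. It lies on the minus strand of chromosome 8 (chr8:71497765-71511752) and had a mean of 13.3 in untreated Scd2f/f, 26.0 in treated Scd2f/f and 18.1 in treated Scd2f/f;CC livers. The treated Scd2f/f mean was 1.95-fold the untreated mean and 1.44-fold the treated Scd2f/f;CC mean, and treated Scd2f/f;CC livers were 1.36-fold above untreated livers. The log2 ratios were 0.97 with treatment and -0.52 between the genotypes. Per 100 counts of Stab2, Plvap had 36.0 in untreated Scd2f/f, 60.7 in treated Scd2f/f and 39.4 in treated Scd2f/f;CC livers. Of the expressed genes, 6.73% had as high a ratio with treatment and 5.95% as low a ratio between the genotypes.

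Cd34 had the lowest ratio of the 10 genes between the genotypes. It lies on the plus strand of chromosome 1 (chr1:194938819-194961279), and its mean was 1.42 in untreated Scd2f/f, 1.23 in treated Scd2f/f and 0.485 in treated Scd2f/f;CC livers. The Scd2f/f groups were close, with a log2 ratio of -0.21, and the Scd2f/f;CC mean lay 2.54-fold below treated and 2.93-fold below untreated Scd2f/f livers. The log2 ratios of these differences were -1.34 and -1.55. Among expressed genes, 0.679% had as low a ratio as Cd34 between the genotypes and 1.04% against untreated livers. Per 100 counts of Stab2, Cd34 had 3.85 in untreated Scd2f/f, 2.87 in treated Scd2f/f and 1.06 in treated Scd2f/f;CC livers.

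The ratio of Cd34 rests on low values. Its mean over the 3 groups was 1.04, the lowest of the 10 genes, and ratios scatter more widely among such genes. Of the 3025 genes with a mean from 0.5 to 2, 5.45% were at least 2-fold lower in treated Scd2f/f;CC than in treated Scd2f/f livers, against 1.84% of the 3959 genes with a mean from 2 to 8. Adding 1 to both means moved the log2 ratio of Cd34 between the genotypes from -1.34 to -0.59. The antisense gene Gm16897 overlaps exons of Cd34. Its means were 0.179 in untreated Scd2f/f, 0.0857 in treated Scd2f/f and 0.0640 in treated Scd2f/f;CC livers. The library kit does not mark strand, so reads of the overlap cannot be assigned to either gene from strand. The same limit holds for Stab1, Stab2 and Clec4g, whose exons overlap those of Nt5dc2, Gm16268 and Gm16553.

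**Figure D2:**
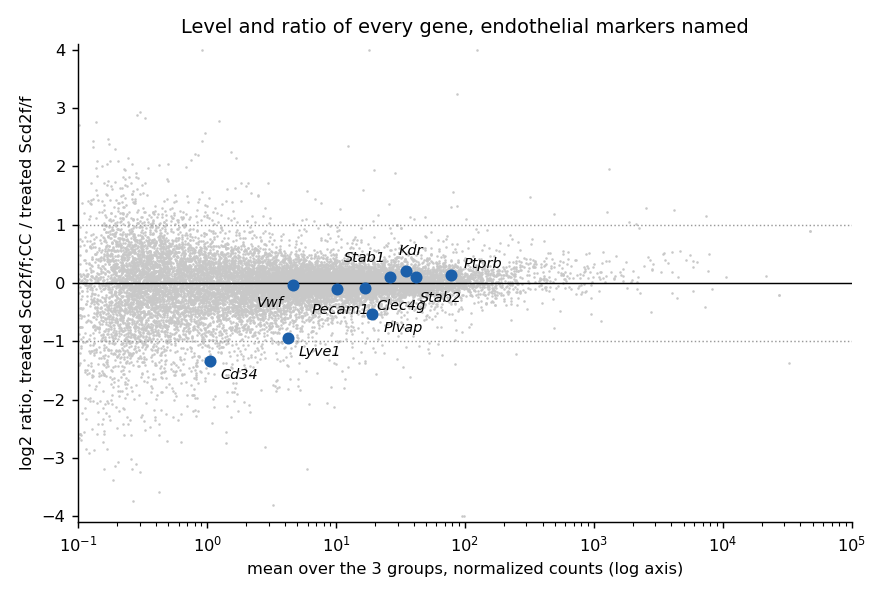
Log2 ratio of treated Scd2f/f;CC to treated Scd2f/f means on the vertical axis, clipped at 4 in either direction, against the mean over the 3 groups on a log axis, for every gene with a mean of at least 0.1 (grey) and the 10 endothelial markers (blue, named). The grey cloud widens toward low means, where Cd34 lies at -1.34, and Lyve1 (-0.94) and Plvap (-0.52) also lie below 0 and the other 7 markers lie close to it.

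Vwf and Pecam1 differed little between the genotypes. Vwf, on the plus strand of chromosome 6 (chr6:125546774-125686679), had means of 4.70 in untreated Scd2f/f, 4.65 in treated Scd2f/f and 4.52 in treated Scd2f/f;CC livers, and its highest mean was 1.04-fold its lowest. Pecam1, on the minus strand of chromosome 11 (chr11:106654217-106750628), had means of 8.34, 11.4 and 10.6 in the same order. Pecam1 was 1.37-fold higher in treated than in untreated Scd2f/f livers, a log2 ratio of 0.45, and the treated genotypes lay within 1.1-fold of each other with a log2 ratio of -0.10.

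Sorted by the order of their groups, 4 of the 10 genes (Lyve1, Clec4g, Plvap and Pecam1) were highest in treated Scd2f/f and lowest in untreated livers. A further 3 (Stab1, Stab2 and Kdr) were highest in treated Scd2f/f;CC and lowest in untreated livers, and 2 (Cd34 and Vwf) were highest in untreated and lowest in treated Scd2f/f;CC livers. Ptprb was highest in treated Scd2f/f;CC and lowest in treated Scd2f/f livers. In 6 genes, Stab1, Stab2, Clec4g, Ptprb, Vwf and Pecam1, the treated genotypes were within 1.1-fold of each other. Of the expressed genes, 26.5% had as high a log2 ratio between the genotypes as Ptprb (0.13). A further 25.6% had as low a ratio as the sinusoidal gene Gpr182 (-0.14). The rest lay between these values, so such closeness was common among expressed genes. Only group means were read and the authors' tests were not used, so no neighbours in these orders are said to differ beyond the spread between mice.

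Counted over the 10 genes, 7 were higher and 3 lower in treated than in untreated Scd2f/f livers, with a median log2 ratio of 0.22. Over all genes the median was 0.04. Lyve1 was past 2-fold, where 9.37% of all genes were at least 2-fold higher, so the share of 1 in 10 was close to this background. At 1.5-fold Plvap joined it, where 17.2% of all genes were that much higher. Relative to the pan-endothelial median, 4 of the 10 were higher and 6 lower, with Stab1, Stab2 and Kdr on the other side of 0. Between the treated genotypes, 4 of the 10 were higher and 6 lower in Scd2f/f;CC, with a median of -0.06 against 0.00 over all genes. Cd34 was past 2-fold, where 4.07% of all genes were at least 2-fold lower. At 1.5-fold Lyve1 joined it, where 9.8% of all genes were that much lower. Against untreated livers, treated Scd2f/f;CC livers had 8 of the 10 higher and 2 lower, a median of 0.33 against 0.05 over all genes, and 1 gene at least 2-fold lower, again Cd34, where 4.64% of all genes were. Relative to the pan-endothelial median (0.17) Stab1 and Ptprb were on the other side of 0 in that comparison.

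**Figure D3:**
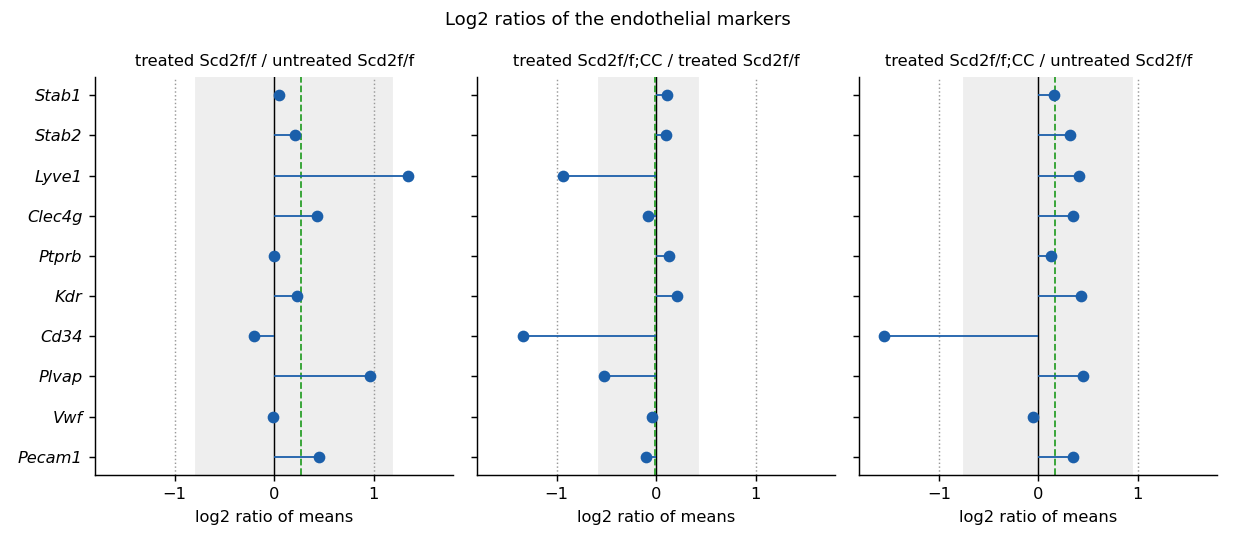
Log2 ratios of the 10 endothelial markers in the 3 comparisons, 1 panel each, with 0 as a solid line, ratios of 2 as dotted lines, the median of 31 pan-endothelial genes as a dashed green line and the range from the 5th to the 95th percentile of expressed genes shaded. Lyve1 (1.34) lies outside the shading with treatment, Lyve1 (-0.94) and Cd34 (-1.34) between the genotypes, and Cd34 (-1.55) against untreated livers.

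Other endothelial genes were read from lists of known genes. Of 13 further sinusoidal genes, 11 were higher and 2 lower in treated than in untreated Scd2f/f livers, 0 of them past 2-fold, with a median log2 ratio of 0.31. The highest were Mrc1 (0.61), the mannose receptor, which Kupffer cells also carry, and Oit3 (0.42). The lowest of its expressed genes were Wnt2 (-0.03), a Wnt ligand made by the sinusoid, and Bmp2 (0.03), a ligand that drives hepcidin. Between the genotypes the 13 genes had a median of -0.02 and ran from -0.14 (Gpr182) to 0.44 (Wnt2), with 6 higher and 7 lower. Wnt2 had means of 1.94 in untreated Scd2f/f, 1.90 in treated Scd2f/f and 2.58 in treated Scd2f/f;CC livers.

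Of 31 pan-endothelial genes, 24 were higher and 6 lower with treatment, with a median log2 ratio of 0.27. Cdh5, which encodes VE-cadherin, a substrate of the Ptprb phosphatase, was the 1 gene of the list past 2-fold. Of all genes, 9.37% were at least 2-fold higher. The means of Cdh5 were 13.6 in untreated Scd2f/f, 27.7 in treated Scd2f/f and 24.9 in treated Scd2f/f;CC livers. Both treated groups thus lay well above the untreated mean. The endothelial transcription factor gene Sox18 followed with a log2 ratio of 0.96, while Nos3, the endothelial nitric oxide synthase, was lowest at -0.27. Between the genotypes 13 of the 31 were higher and 17 lower, 0 were past 2-fold, the median was -0.01, and the values ran from -0.47 (Sox18) to 0.26 (S1pr1). Summed over the list, the means were 181, 225 and 224 normalized counts in untreated Scd2f/f, treated Scd2f/f and treated Scd2f/f;CC livers.

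A list of 23 genes of large-vessel, activated or tip-cell endothelium was read in the same way. With treatment, 19 were higher and 4 lower, and the median log2 ratio was 0.52. At least 2-fold higher were 4, where 9.37% of all genes were. Between the genotypes, 2 were higher and 21 lower in Scd2f/f;CC, and the median was -0.55. At least 2-fold lower were 2, where 4.07% of all genes were. Of its expressed genes, the leukocyte adhesion genes Icam1 and Vcam1 had the highest ratios with treatment, while Selp, another adhesion gene, had a log2 ratio of 0.53. The lowest with treatment were Cav2 (-0.28) and Thbd (-0.14). Between the genotypes Aqp1 was the highest of them, with a log2 ratio of 0.08. Icam1 had means of 5.96 in untreated Scd2f/f, 17.7 in treated Scd2f/f and 11.3 in treated Scd2f/f;CC livers. Vcam1 had means of 9.41, 27.6 and 13.5 in the same order, and its log2 ratio between the genotypes was -1.03. Col4a1, a basement membrane collagen chain, had means of 25.1, 39.9 and 24.7, and a log2 ratio between the genotypes of -0.69. Many of these genes are also expressed by stellate cells, macrophages or hepatocytes. Of the 23, 14 were expressed by the definition above, and among those the medians were 0.23 with treatment, below those of the expressed sinusoidal (0.31) and pan-endothelial (0.27) genes, and -0.38 between the genotypes. Of the 14, 2 were at least 2-fold higher with treatment, where 6.4% of expressed genes were. Between the genotypes 1 was at least 2-fold lower, where 1.54% of expressed genes were.

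Around Kdr and Ptprb, 13 ligands, receptors, co-receptors and substrates of VEGF and angiopoietin signaling were listed, not all of them direct partners. Of these, 12 were found. With treatment 9 were higher and 3 lower, and between the genotypes 5 were higher and 7 lower in Scd2f/f;CC. Vegfa, the main ligand of the Kdr receptor, had means of 34.5 in untreated Scd2f/f, 26.9 in treated Scd2f/f and 31.7 in treated Scd2f/f;CC livers. The co-receptor gene Nrp1 had means of 81.6, 52.6 and 80.4 in the same order, so treated Scd2f/f livers were lowest for both. Vegfc was higher with treatment, at 1.13, 1.76 and 1.91. Vegfb was lowest in Scd2f/f;CC, at 3.51, 4.45 and 2.67. The receptor genes Tek and Tie1 had log2 ratios between the genotypes of -0.01 and 0.04. Angpt1 had means of 0.620, 0.964 and 0.392, and a ratio of -1.30. It was the 1 gene of the 12 at least 2-fold lower, where 4.07% of all genes were. Angpt2 had means of 0.807, 1.16 and 0.673, and a ratio of -0.79. Both genes averaged below 1 over the 3 groups. With treatment 1 of the 12, Cdh5, was at least 2-fold higher, where 9.37% of all genes were.

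**Figure D4:**
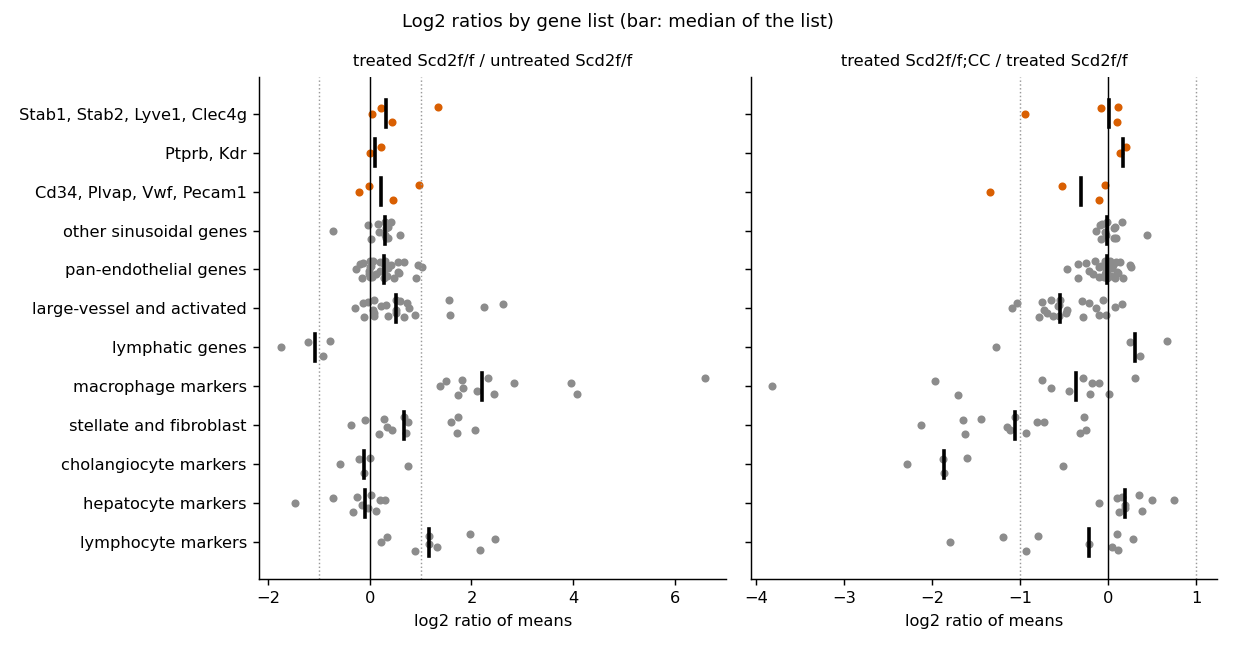
Log2 ratios of single genes (points) and the median of each list (bar), for treated against untreated Scd2f/f livers on the left and treated Scd2f/f;CC against treated Scd2f/f on the right, with ratios of 2 as dotted lines and the 10 endothelial markers in orange. The sinusoidal and pan-endothelial lists centre near 0.3 on the left and near 0 on the right, while macrophage markers centre at 2.21 on the left and cholangiocyte markers at -1.86 on the right.

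Markers of other cell types differed between the same groups, and their part in the results was not tested. Of 12 macrophage markers, all 12 were at least 2-fold higher in treated than in untreated Scd2f/f livers, where 9.37% of all genes were. Their summed means were 107, 432 and 344 in untreated Scd2f/f, treated Scd2f/f and treated Scd2f/f;CC livers. Macrophages can express Stab1, Lyve1 and Pecam1. Of 13 HSC and fibroblast markers, 11 were higher with treatment and 13 were lower in Scd2f/f;CC, with sums of 233, 387 and 229. In the macrophage sum treated Scd2f/f was highest and untreated Scd2f/f lowest, the order also found for Lyve1, Clec4g, Plvap and Pecam1 and for the pan-endothelial, large-vessel and lymphocyte sums.

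Of 5 cholangiocyte markers, all 5 were lower in Scd2f/f;CC than in treated Scd2f/f livers. Of these, 4 were at least 2-fold lower, where 4.07% of all genes were. Their sums were 58.7, 53.1 and 19.1 in untreated Scd2f/f, treated Scd2f/f and treated Scd2f/f;CC livers. Cd34 shared this order, with close means in both Scd2f/f groups and the lowest in Scd2f/f;CC. The order was also found for Acta2 (1.27, 1.20 and 0.388) and Des (4.25, 3.29 and 1.98). These were the 2 of the 13 HSC and fibroblast markers that were lower with treatment, while 11 were higher. Genes of other lists had the order too, so it was not particular to cholangiocyte or HSC markers. Among endothelial genes these included Nos3 (1.46, 1.21 and 1.07), Thbd (4.03, 3.66 and 3.14) and Cav2 (4.05, 3.33 and 3.02). The hepatocyte marker Hnf4a had it as well (271, 229 and 213). Within the cholangiocyte list Sox9 had another order, with a log2 ratio of 0.75 with treatment and -0.51 between the genotypes. Krt19 was highest in treated Scd2f/f by a narrow margin, with means of 0.746, 0.751 and 0.204. Vwf, a large-vessel marker, had level means. Of 10 hepatocyte markers, 4 were higher and 6 lower with treatment and 9 were higher in Scd2f/f;CC than in treated Scd2f/f, with sums of 36871, 34603 and 39293, of which Alb made up 21300, 20900 and 22700. Of 9 lymphocyte markers, each with a mean below 1, all 9 were higher with treatment and the sums were 1.98, 5.45 and 3.72. No gene of the table, marker or not, was at 0 in any group. The lowest means of any gene were 0.04 in untreated Scd2f/f, 0.0348 in treated Scd2f/f and 0.0349 in treated Scd2f/f;CC livers.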

How the data were processed

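PolyA RNA of 9 livers was sequenced by the authors on a NextSeq instrument after TruSeq library preparation. The submitters' processing notes list STAR 2.6.1, Partek 6 and mm10. The authors assigned reads to Gencode genes by the Partek E/M method, scaled the counts by upper-quartile normalization and fitted Partek Gene Specific Analysis. The deposited signal values are least-squares means of normalized counts for each group, rounded to 3 significant digits. The deposited table, with 18 columns, also holds p-values, false discovery rates, ratios and fold changes of 2 comparisons by the authors, and these were not used. Their mean of treated Scd2f/f is given once for each comparison, and both copies were equal in every row (0 differences).

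Log2 ratios were computed from the means with no pseudocount, no filter and no further scaling. The depth of each library is unknown, so no interval is given, and with group means alone no test was run, although a test had been planned for values of single mice. The members and lists were chosen with earlier results of these data known. The genes planned for naming were the 10 markers, Scd2, the genes nearest in pattern and the ends of each list. These ends were the 2 highest and 2 lowest in a comparison among expressed genes. Not all of these list ends are named above. Fli1, Ecscr and Fabp4 are among those left out. Other genes, among them Vegfa, Tek, Tie1, Col4a1, Selp, Sox9 and Alb where no list end names them, and the genes that overlap a marker, were chosen after their values were seen. Angpt1, Angpt2 and Krt19 were also chosen in this way. The steps were checked on simulated means.

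The starts and ends of the 10 genes equalled those of GENCODE M21 on GRCm38 once the last position was read as exclusive. Promoters were taken from RefSeq. The alternatives were pseudocounts of 0.1 and 1, centring, a filter on the mean, a fold of 1.5, scaling to pan-endothelial genes, and, chosen after seeing the data, leaving out Cd34. Python 3.11.15, NumPy 2.4.6, pandas 2.3.3 and Matplotlib 3.10.9 were used.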

Additional observations from a re-analysis of the deposited data

How the results depend on the processing

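No paired analysis was possible because the table gives group means and no column carries a replicate number. For the same reason no replicate could be left out and no fit with a replicate block was run. A value was counted as unchanged only within the rounding of the means, since no spread between mice is known. Between treated Scd2f/f;CC and treated Scd2f/f, and between treated Scd2f/f;CC and untreated Scd2f/f, the number of markers past 2-fold was 1 and became 0 with a pseudocount of 1, and 0 with the filter on the mean, which leaves out Cd34 by construction. With a fold of 1.5 the number became 2 for treated against untreated Scd2f/f (Lyve1 and Plvap) and 2 between the genotypes (Lyve1 and Cd34). The median log2 ratio of the markers became 0.19 for treated against untreated Scd2f/f and 0.29 for treated Scd2f/f;CC against untreated when centred, and 0.30 in the latter with a pseudocount of 1. With the filter, or without Cd34, it became -0.041 between the genotypes and 0.35 against untreated livers. No single marker changed sign with a pseudocount of 1 or centring. With scaling to the pan-endothelial median, 3 did for treated against untreated Scd2f/f, 0 between the genotypes and 2 against untreated livers.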

Other observations

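Of 4 further genes of lymphatic endothelium, 4 were lower in treated than in untreated Scd2f/f livers, 2 of them at least 2-fold, with a median log2 ratio of -1.06, where 4.69% of all genes were at least 2-fold lower. Between the genotypes 3 of the 4 were higher in Scd2f/f;CC, with a median of 0.30. Lyve1, which lymphatic endothelium also expresses, was 2.54-fold higher with treatment. Mmrn1 had means of 0.937 in untreated Scd2f/f, 0.279 in treated Scd2f/f and 0.359 in treated Scd2f/f;CC livers. Pdpn had means of 0.417, 0.242 and 0.0998 in the same order, and was the 1 gene of the 4 that was lowest in treated Scd2f/f;CC. Prox1, at 110, 58.1 and 92.0, was the 1 gene of the list with a mean above 1, and hepatocytes express it as well, while the other 3 had means from 0.253 to 0.525 over the 3 groups. Of 5 platelet and megakaryocyte genes, 3 were found, with sums of 1.69, 1.63 and 1.62. Itga2b made up most of these sums, with a log2 ratio of 0.02 between the genotypes, while Pf4 had means of 0.313, 0.360 and 0.241 and Ppbp had means of 0.353, 0.277 and 0.383.

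The genes nearest to the median pattern of Stab1, Stab2, Lyve1 and Clec4g in the first and second comparison were Hecw2, F9, Akap12, Swap70 and Irf2, at distances from 0.0031 to 0.0094 in log2 units over 3 group means. Those nearest to the median pattern of Cd34, Plvap, Vwf and Pecam1 were Bin1, Dtx2, Ranbp3, Pgm2l1 and Tm4sf1, at 0.0040 to 0.019. Within a distance of 0.25 lay 2596 genes (22.0%) and 1199 genes (10.2%) of the 11774 searched, so nearness over 3 means does not set these genes apart. Among genes that overlap a marker, Gtpbp3 at Plvap had log2 ratios of -0.54 with treatment and 0.02 between the genotypes, where Plvap had 0.97 and -0.52. At the Stab1 locus Nt5dc2, which overlaps exons of Stab1, had 0.24 and -0.58, where Stab1 had 0.05 and 0.11.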
